A study of Mus musculus with 12 samples.

Results

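Among 12 one-colour arrays of mouse neural progenitor cells (NPCs), 4 carried RNA from cells with a short hairpin RNA against Actb, the gene of β-actin. The labels name 2 such hairpins, shActb_1 and shActb_2, each with 2 arrays, and the comparison described here sets the shActb_2 arrays against the shActb_1 arrays. The arrays were picked by their titles, and the comparison was chosen with earlier results of these data known. The NPCs had been derived in vitro from mouse ES cells and were kept on gelatin in medium with EGF and bFGF. All hairpins were delivered by retrovirus, and shEGFP cells (2 arrays), whose hairpin is directed at a fluorescent protein gene, were the control for knockdown. The other 6 arrays are labelled as NPCs overexpressing EGFP, Mkl1 or Srf, 2 each, and are called the overexpression arrays by that label. The Srf probes averaged 1.26 and 0.25 on the arrays labelled Srf, below the 2.66 and 2.71 with EGFP, and Mrtfa, the official name of Mkl1, averaged 3.64 on the arrays labelled Mkl1 against 3.47 with EGFP. Neither label was therefore borne out by these probes, and whether they lie within the introduced sequences was not tested. Acta2, a target of Srf, averaged -0.54 with EGFP, 6.38 on the arrays labelled Mkl1 and 2.83 on those labelled Srf. The question was which genes differ between cells that carry different hairpins against the same gene, Actb.

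β-actin is the main non-muscle actin together with γ-actin (Actg1). Free actin monomers bind the coactivator Mkl1 (now Mrtfa) and hold it in the cytoplasm, and loss of monomers lets Mkl1 enter the nucleus, where it activates serum response factor (Srf). Srf binds a short DNA element, the CArG box, in the promoters of actins and other cytoskeletal and contractile genes. A hairpin can also lower transcripts other than its target through partial matches, which is why studies compare more than a single hairpin. Neither hairpin's sequence is printed here.

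The arrays differed in ways that bear on every value below. All shActb_1 and shEGFP arrays were on the same slide, shActb_2 arrays were on a slide of their own, and the overexpression arrays were on the remaining slide, so slide and hairpin cannot be told apart for shActb_2 against shActb_1. Levels are log2 signals relative to each array's 75th percentile. Median local background was 47 to 47.5 on the shActb_2 slide and 26 on the slide of shActb_1, and 33006 and 40354 probes were well above background on the shActb_2 arrays against 34915 and 38515 on the shActb_1 arrays. The 6 brighter spike-in probes, which read RNA added to every sample, were 0.59 higher on average on the shActb_2 arrays than on the shActb_1 arrays, while shActb_1 and shEGFP arrays differed by 0.02. The brightest spike-in probe, left out of this mean, was 0.30 higher. A gene's difference is therefore 0.59 lower than printed here relative to the mean of the 6 probes, and 0.30 lower relative to the brightest. Increases smaller than that turn negative on those scales. Arrays of the same hairpin correlated at r = 0.998 (shActb_1) and 0.996 (shActb_2) across probes, with 0.56% and 1.54% of probes differing over 2-fold. The study's legends call such duplicates technical, so p-values measure the spread between arrays only.

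Between the hairpins 1782 of 35426 probes tested (5.03%) differed over 2-fold at an adjusted p under 0.05 (limma, Benjamini-Hochberg), which is what "called" means below. Of these, 635 (1.79%) were higher and 1147 (3.24%) lower with shActb_2, but without shActb_2 replicate 2 the counts were 1175 higher and 803 lower. With the brightest probe of each of 15663 named genes, 673 genes (4.30%) were called, 358 higher (2.29%) and 315 lower (2.01%). Most of these genes were dim, with a median level of -4.37 with shActb_1 among those higher and -3.05 among those lower, against 0.70 over all named genes tested. Each hairpin was also set against shEGFP, which both comparisons share. Then 582 of 36238 probes (1.61%) were called with shActb_1 and 2283 of 36173 (6.31%) with shActb_2, the first within a slide and the second across slides. Correcting the background with normexp (offset 50), which started from each spot's median signal and not from the processed one, gave 418 called probes. Of the called genes named below, Bmp7, Cldn3, Col2a1, Dok7, Elavl4, Emx1, Fabp7, Fos, Fst, Gad2, Gdf15, Il6, Itga4, Itga7, Lgr5, Meox2, Myh11, Myl1, Ndrg1, Nog, Oasl1, Oasl2, Phlda2, Rassf9, Sfrp1, Sfrp5 and Xist lost their call with it, and the others kept theirs.

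**Figure D1:**
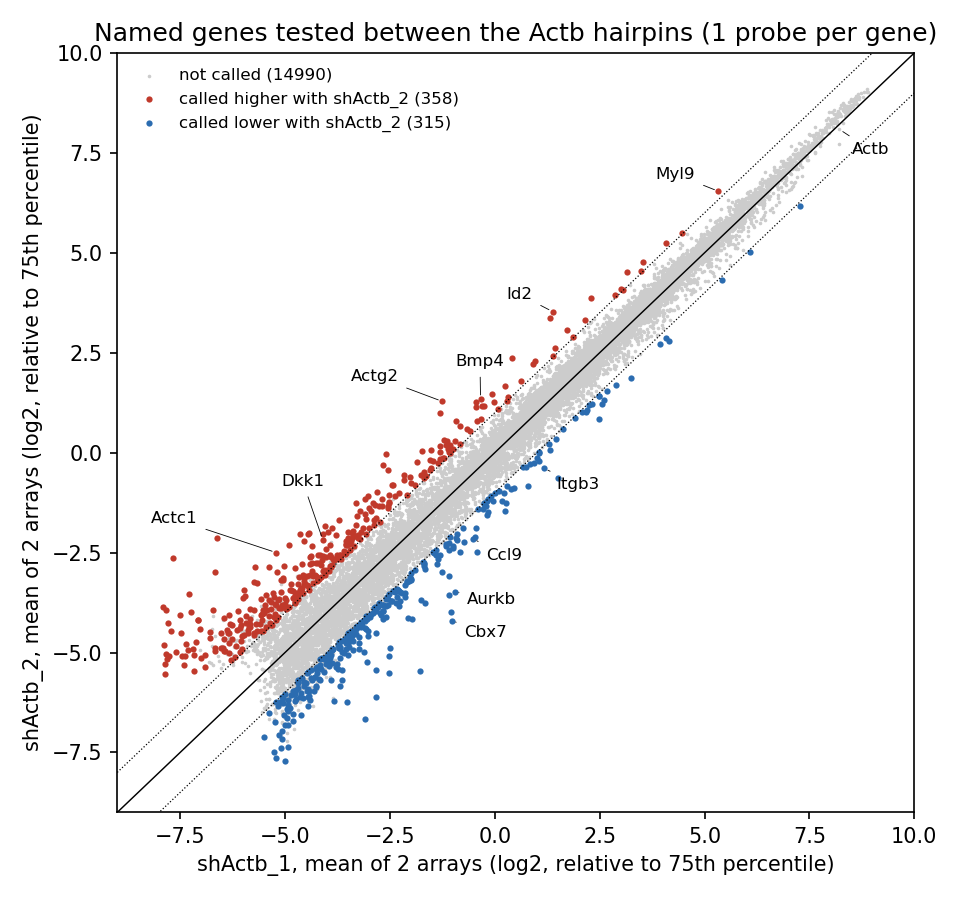
Mean level of each named gene on the 2 shActb_1 arrays (x axis) and the 2 shActb_2 arrays (y axis), both log2 relative to the array's 75th percentile, with the brightest tested probe per gene. Solid line, equal levels, dotted lines, 2-fold. The 358 genes called higher (red) and 315 called lower (blue) lie mostly at low levels, and Actb lies close to the line of equal levels.

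Actb itself was at 8.74 and 8.75 on the shEGFP arrays, 8.23 and 8.20 with shActb_1 and 8.12 and 8.06 with shActb_2. The arrays of both hairpins lay below those of shEGFP, and the shActb_2 arrays lay below the shActb_1 arrays without overlap. The difference between hairpins was -0.12 (SE 0.05, adjusted p = 0.112) and was not called. It was -0.39 after quantile normalization (adjusted p = 0.0023) and -0.71 relative to the mean of the 6 spike-in probes, or -0.43 relative to the brightest spike-in probe, so how close the hairpins' Actb levels were depends on the scale. Actg1 was at 8.47 and 8.43 with shActb_1 and 8.70 and 8.60 with shActb_2, a difference of 0.20 (SE 0.07, adjusted p = 0.0703) that turned to -0.028 after quantile normalization. Srf differed by 0.15 (adjusted p = 0.383), Mrtfa by 0.08 (adjusted p = 0.588) and Mrtfb, its relative, by 0.13 (adjusted p = 0.154). None of the 7 tested genes for Srf and its cofactors was called, and neither was any of 24 genes of actin assembly, where 4.30% of all named genes were. By adjusted p alone 8 of these 24 were higher and 0 lower, where 20.9% and 12.4% of all named genes were (median difference 0.18).

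The muscle-type genes Actg2, Actc1 and Myl9, called higher than in shEGFP cells with either hairpin, stood higher still with shActb_2. Actg2, the γ-actin of smooth muscle of the gut, was at -1.13 and -1.37 with shActb_1 and 1.31 and 1.26 with shActb_2, against -3.97 and -4.04 on the shEGFP arrays. The groups did not overlap, and the difference between hairpins was 2.54 (SE 0.11, adjusted p = 8.52e-05). Actc1, the cardiac α-actin, was at -4.94 and -5.49 with shActb_1 and -2.46 and -2.54 with shActb_2. The difference between hairpins was 2.71 (SE 0.25, adjusted p = 0.000565). Neither shEGFP array was well above background for Actc1 (-7.54 and -7.03). It entered each test against shEGFP through the hairpin alone, so its calls there are no independent support. Myl9, a regulatory light chain of smooth muscle myosin, was at 5.33 and 5.33 with shActb_1 and 6.57 and 6.52 with shActb_2, and rose from 2.24 and 2.18 on the shEGFP arrays. Its difference between hairpins was 1.21 (SE 0.08, adjusted p = 0.000203). The heavy chain of smooth muscle myosin, Myh11, was well above background on both shActb_2 arrays and neither shActb_1 array, at least 4.42-fold higher (adjusted p = 0.00276). It entered the test through shActb_2 alone, the hairpin with which it was high, so its call is no independent support. The same applies below to Il6, Itga4, Phlda2, Sfrp5, Oasl1, Rarres1, Rassf9, Dok7, Vmn2r42 and Olfr918, and through shActb_1 to Sfrp1, Ccne2, Emx1 and Xist, and to the list counts that hold them. Here and below such a bound sets the brighter hairpin's mean against the dimmest signal counted as well above background on each array of the other hairpin, or the probe's own signal if higher.

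Acta2, Cnn1, Tagln and Acta1 differed by less than 2-fold between hairpins. Acta2, the α-actin of vascular smooth muscle, was at 5.71 and 5.58 with shActb_1 and 6.26 and 6.28 with shActb_2, a difference of 0.63 (adjusted p = 0.0017) that stayed under 2-fold. Cnn1, the actin-binding calponin of smooth muscle, differed by 0.53 (adjusted p = 0.00185), likewise under 2-fold. Tagln, a smooth muscle actin-crosslinking protein, differed by 0.33 (SE 0.22, adjusted p = 0.283). Acta1, the skeletal α-actin, was at 0.82 and 0.69 with shActb_1 and 0.88 and 0.85 with shActb_2, a difference of 0.11 (SE 0.12, adjusted p = 0.525), although it lay at -3.11 and -3.48 with shEGFP. Of 35 tested genes in a list of actin and Srf targets, 3 were called higher (Actg2, Actc1 and Myl9) and 0 lower, where 2.29% and 2.01% of all named genes were. By adjusted p alone 9 were higher and 4 lower, where 20.9% and 12.4% of all named genes were. The list's median difference was 0.15, against 0.06 over all named genes. Of 12 muscle markers 3 were called higher and 0 lower, where 2.29% and 2.01% of all named genes were. The 3 were Myh11, with the limit given above, Myl1, a myosin light chain of skeletal muscle (1.61), and Synpo2, an actin-bundling protein of muscle (1.20). The summed linear level of all 16 muscle markers on the array, as log2, was 2.85 and 2.88 on the shActb_1 arrays and 2.66 and 2.78 on the shActb_2 arrays, so the sum was not higher with shActb_2.

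**Figure D2:**
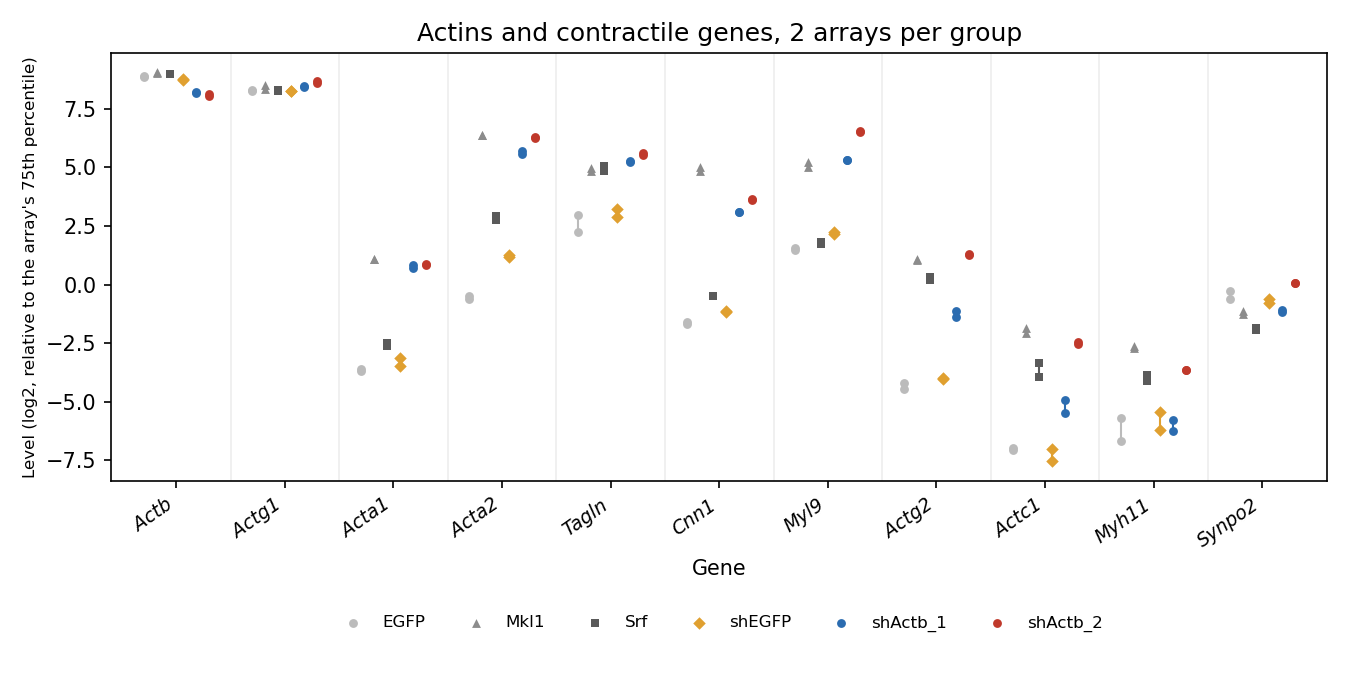
Level of actin and contractile genes (y axis, log2 relative to the array's 75th percentile) on each of the 12 arrays, 2 per group, with a line joining the arrays of a group. Acta1, Acta2, Tagln and Cnn1 lie close together for both Actb hairpins, while Actg2, Actc1, Myl9 and Myh11 lie higher with shActb_2.

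CArG boxes near the start sites of these genes are shown because Srf binds this element and because it occurs both in genes that differed between hairpins (Actc1 and Myl9) and in genes that were not called (Acta1 and Actg1). The windows are RefSeq sequence of build GRCm38.p6 on the gene's strand, with the box in capitals.
Actc1 (chr2:114052903-114052932, minus strand, 47 bases before the start site): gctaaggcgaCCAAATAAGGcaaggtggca
Myl9 (chr2:156775293-156775322, plus strand, 161 bases before the start site): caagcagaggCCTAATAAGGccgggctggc
Acta1 (chr8:123894829-123894858, minus strand, 73 bases before the start site): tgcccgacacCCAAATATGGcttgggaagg
Actg1 (chr11:120348566-120348595, minus strand, 90 bases before the start site): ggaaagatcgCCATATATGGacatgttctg
In a window from 250 bases before to 50 bases after the start site, read on both strands, the box was found in 219 of 12457 tested genes with a promoter sequence (1.76%), in 12 of 266 such genes called higher with shActb_2 (4.51%) and in 5 of 237 called lower (2.11%). Over all 32851 promoter entries the share was 1.63%. The 12 included Actc1, Myl9 and Dusp5, a nuclear phosphatase that inactivates Erk (1.43), and the 5 included Elavl4 (-1.05). The letters were not in the windows of Acta2 and Cnn1, and Actg2, Tagln and Myh11 were not among the entries used here. These shares describe sequence matches only.

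The bone morphogenetic protein (BMP) ligands Bmp4 and Bmp7 and all 4 Id genes were higher with shActb_2. Bmp4, a secreted ligand, was at -0.25 and -0.43 with shActb_1 and 1.34 and 1.33 with shActb_2, a difference of 1.68 (SE 0.09, adjusted p = 0.000114). Both shActb_2 arrays lay above both shActb_1 arrays and below the shEGFP arrays, at 2.35 and 2.34. Bmp7, another ligand, was at -3.50 and -3.51 with shActb_1 and -2.10 and -2.18 with shActb_2 (difference 1.37, adjusted p = 0.000141). The Id genes, which BMP signalling induces and which encode inhibitors of basic helix-loop-helix factors, were all higher with shActb_2. Id2 was at 1.56 and 1.20 with shActb_1 and 3.66 and 3.40 with shActb_2, a difference of 2.15 (SE 0.21, adjusted p = 0.000678), and shEGFP lay between the hairpins at 2.52 and 2.54. Id1 differed by 1.07, Id3 by 1.17 and Id4 by 1.34, with adjusted p from 0.000519 to 0.000942, though Id1 fell just under 2-fold without shActb_1 replicate 2 (0.99) or shActb_2 replicate 1 (0.96) and after quantile normalization (0.99). Each of the 4 Id genes had shEGFP between the hairpins. Smad6, a feedback inhibitor of the pathway, was at -1.98 and -2.06 with shActb_1 and -0.51 and -0.71 with shActb_2 (difference 1.41, adjusted p = 0.000741). Among secreted antagonists Fst, follistatin, was higher (1.21, and 0.90 without shActb_2 replicate 1) and Nog, noggin, lower (-1.13), the latter losing its call when shActb_1 replicate 1 (-1.25, adjusted p = 0.0515), shActb_1 replicate 2 (-1.01, adjusted p = 0.0762) or shActb_2 replicate 2 (-0.79, adjusted p = 0.0772) was left out. Of 22 tested genes of TGF-β and BMP signalling, 6 were called higher and 2 lower, the second of these being Gdf15, a stress-induced ligand (-1.04), which was not called when any single array was left out. Among all named genes 2.29% were called higher and 2.01% lower. The list's median difference was 0.28.

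The Wnt antagonists Dkk1 and Sfrp2 and the Notch ligand Jag2 were also higher with shActb_2, and the antagonist Sfrp1 was called lower. Dkk1, which blocks Wnt coreceptors, was at -4.11 and -4.09 with shActb_1 and -2.06 and -2.30 with shActb_2, a difference of 1.92 (SE 0.09, adjusted p = 9.09e-05). Sfrp2, a secreted Frizzled-related protein that binds Wnts, was at -2.89 and -2.75 with shActb_1 and -1.03 and -0.94 with shActb_2 (1.84, adjusted p = 0.000118). For both genes the shActb_2 arrays were nearer to shEGFP, at -0.83 and -0.73 for Dkk1 and -1.31 and -1.17 for Sfrp2. Sfrp5, which was above background on 1 of the shActb_1 arrays and so was tested through shActb_2, differed by 1.59, and Lgr5, an R-spondin receptor, by 1.20, the latter not called when any single array was left out. The shActb_1 arrays disagreed for Sfrp1 (-4.63 and -2.39), and it lost the call without shActb_2 replicate 2 (-2.34, adjusted p = 0.105) and with the 4 shActb arrays (0.107) or 6 knockdown arrays (0.0608) alone. Of 20 tested Wnt genes 4 were called higher and 1 lower, and by adjusted p alone 11 were higher and 3 lower (median difference 0.69). Among all named genes 2.29% were called higher and 2.01% lower, and 20.9% and 12.4% passed by adjusted p alone. Jag2, a Notch ligand, was at -4.42 and -4.89 with shActb_1 and -1.97 and -2.11 with shActb_2 (2.61, SE 0.23, adjusted p = 0.000492), with shEGFP between at -3.92 and -3.29. Of 19 Notch and proneural genes 5 were called higher and 0 lower, Jag2 and the Id genes.

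**Figure D3:**
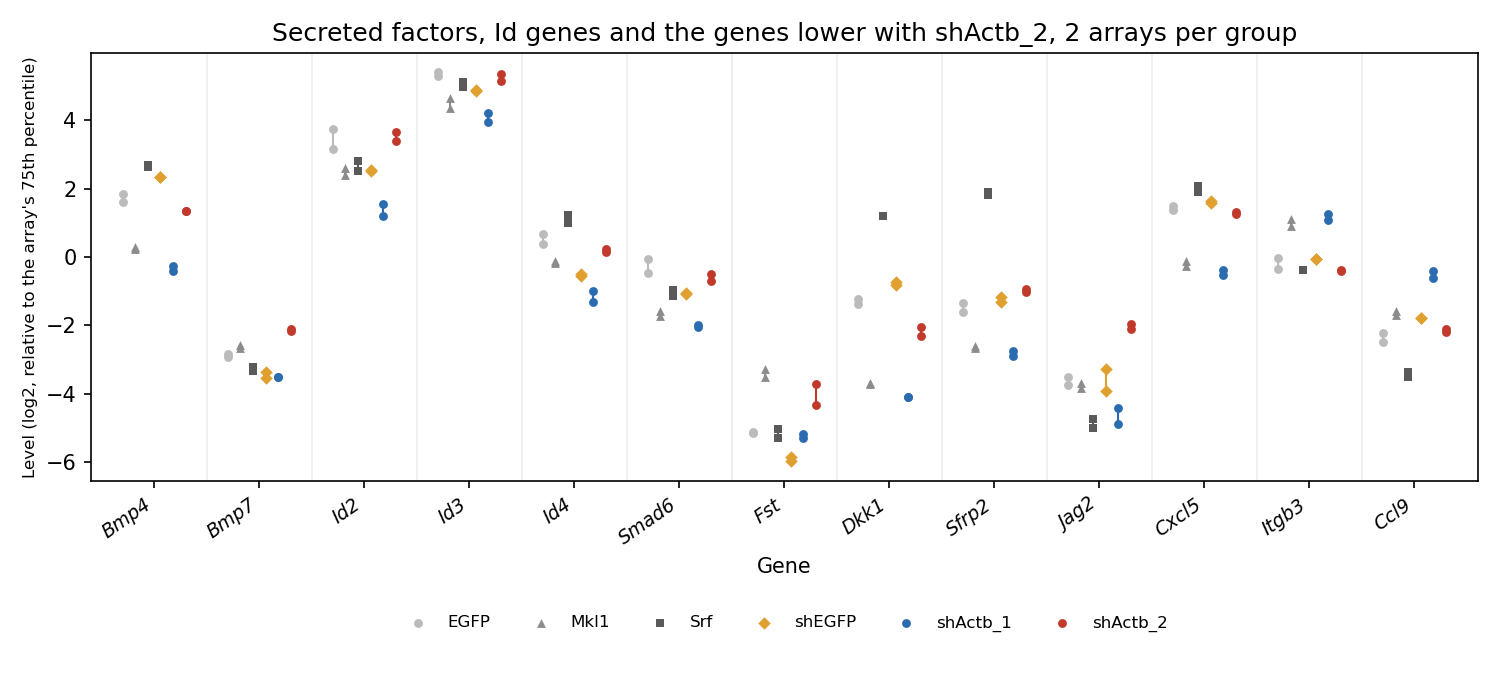
Level of BMP, Wnt and Notch genes, Id genes, Cxcl5, Itgb3 and Ccl9 (y axis, log2 relative to the array's 75th percentile) on each of the 12 arrays, 2 per group. From Bmp4 to Cxcl5 the shActb_2 arrays lie above the shActb_1 arrays, and for Itgb3 and Ccl9 below them.

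Chemokines and cytokines split by gene, with 3 of 14 called higher and 4 lower, where 2.29% and 2.01% of all named genes were. Ccl2, a monocyte attractant, was at 7.33 and 7.24 with shActb_1 and 6.21 and 6.16 with shActb_2, a difference of -1.11 (SE 0.09, adjusted p = 0.00029). Ccl7, its neighbour in function, was at 3.38 and 3.13 with shActb_1 and 1.93 and 1.79 with shActb_2 (-1.40, adjusted p = 0.000373), and Ccl9 was at -0.41 and -0.62 with shActb_1 and -2.19 and -2.12 with shActb_2 (-1.64, adjusted p = 0.0002). Cxcl16, a membrane-bound chemokine, differed by -1.40. Cxcl5, a neutrophil attractant, went the other way, at -0.38 and -0.53 with shActb_1 and 1.31 and 1.25 with shActb_2 (1.73, adjusted p = 0.000114), with shEGFP at 1.57 and 1.64. Cxcl14 differed by 2.03, and Il6, above background on both shActb_2 arrays and neither shActb_1 array, was at least 3-fold higher. On the other arrays Il6 was above background with Mkl1, with Srf and on 1 shEGFP array. Vcam1, an adhesion receptor that inflammatory signals induce, was at 4.22 and 4.08 with shActb_1 and 2.79 and 2.82 with shActb_2 (-1.34, adjusted p = 0.000203), and Nfkbie, an inhibitor and target of NF-κB, was at 3.93 and 3.94 with shActb_1 and 2.70 and 2.71 with shActb_2 (-1.23, adjusted p = 8.52e-05). For Ccl2, Ccl7, Cxcl16, Vcam1 and Nfkbie the shEGFP arrays, on the slide of shActb_1, also lay above all 6 overexpression arrays, whereas for Ccl9 they did not. For Cxcl14 they lay below all 6.

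By adjusted p alone 16 of 33 interferon-stimulated genes were lower with shActb_2, by small amounts, and 1 was higher, against 12.4% lower among all named genes, and the median difference was -0.33. Oasl2, an oligoadenylate synthetase-like gene, was called, at 1.06 and 1.04 with shActb_1 and 0.03 and 0.00 with shActb_2 (-1.04, SE 0.09, adjusted p = 0.000521). Its relative Oasl1 was called higher (1.87), though it was well above background on 1 of the shActb_1 arrays only. Parp14, an ADP-ribosyltransferase that interferon induces, was outside the list and differed by -1.14 (adjusted p = 0.000677). None of 13 genes of the RNA interference machinery was called, where 4.30% of all named genes were.

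Some targets of the Atf4 stress response were called lower with shActb_2. Trib3, a pseudokinase that Atf4 and Ddit3 induce, was at 5.87 and 6.30 with shActb_1 and 4.86 and 5.18 with shActb_2 (-1.06, adjusted p = 0.0217), and Ddit3, the transcription factor Chop, was at 2.33 and 2.63 with shActb_1 and 1.25 and 1.58 with shActb_2 (-1.06, adjusted p = 0.00416). When any single array was left out Trib3 was no longer called (adjusted p from 0.0505 to 0.122), and Ddit3 fell below 2-fold without shActb_1 replicate 2 (-0.91) or shActb_2 replicate 1 (-0.90). Outside the list, and named for their level after their values were seen, Psph, the last enzyme of serine synthesis, differed by -1.09 (adjusted p = 0.000455; -0.99 without shActb_1 replicate 2) and Slc7a3, a cationic amino acid transporter, by -1.30 (adjusted p = 0.00785; 0.0527 without shActb_1 replicate 2). In the stress list of 22 genes 2 were called lower and 1 higher, where 2.01% and 2.29% of all named genes were. By adjusted p alone 7 were lower and 4 higher, where 12.4% and 20.9% of all named genes were. The list's median difference was -0.11. The gene called higher was Hspa1a, an inducible heat shock protein (1.16). The shEGFP arrays lay above all overexpression arrays for Trib3, Ddit3, Psph and Slc7a3, and below them for Hspa1a.

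Many genes of glycolysis and the response to low oxygen were higher with shActb_2 by adjusted p. Of 22 tested 2 were called, where 4.30% of all named genes were. Bnip3, a mitochondrial protein that hypoxia induces, was at 4.41 and 4.53 with shActb_1 and 5.49 and 5.50 with shActb_2 (1.03, SE 0.10, adjusted p = 0.000694), and its 3 probes gave 1.03 to 1.06. Its difference was 0.97 without shActb_1 replicate 1 and 0.94 after quantile normalization, both just under 2-fold. Ndrg1, another hypoxia-induced gene, was at 2.90 and 3.21 with shActb_1 and 3.91 and 4.21 with shActb_2 and sat at the threshold (1.001, adjusted p = 0.0122), losing its call without shActb_1 replicate 1 (0.85, adjusted p = 0.0866) or shActb_2 replicate 2 (0.85, adjusted p = 0.0871). Slc16a3, the lactate exporter, was outside the list, at 3.52 and 3.55 with shActb_1 and 4.87 and 4.67 with shActb_2 (1.24, adjusted p = 0.00117). By adjusted p alone 15 of 22 genes were higher and 0 lower, where 20.9% of all named genes were higher, and the median difference was 0.46. Relative to the mean of the 6 spike-in probes that median would be below 0. Relative to the brightest spike-in probe, which was 0.30 higher with shActb_2, it would stay above 0. Oxidative phosphorylation (12 of 22 higher, median 0.25) and ribosomal protein genes (14 of 22, median 0.23) showed smaller differences, with 0 members called.

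Markers of cell identity were called in the neuronal (4 of 17, 23.5%), mesenchymal (2 of 17, 11.8%), epithelial (1 of 10) and neural progenitor (1 of 18, 5.56%) lists, against 4.30% of all named genes. Of 21 neural progenitor markers on the array 17 were well above background on all 4 arrays, among them Nes, Sox2, Pax6 and Vim, while Sox3 and Olig2 were above it on none. Of 18 tested, 1 was called, Fabp7, a fatty acid binding protein of radial glia, at -4.18 and -4.27 with shActb_1 and -3.17 and -3.23 with shActb_2 (1.02, adjusted p = 0.00673). Its difference fell just under 2-fold without shActb_1 replicate 2 (0.98) or shActb_2 replicate 1 (0.995). By adjusted p alone 7 of these 18 were higher and 2 lower, where 20.9% and 12.4% of all named genes were. The summed linear level of the 21 neural progenitor markers, as log2, was 8.18 and 8.20 on the shActb_1 arrays and 8.58 and 8.59 on the shActb_2 arrays. Neuronal genes were called in both directions, with 3 of 17 higher and 1 lower. Gad2, which makes the transmitter GABA, was at -4.28 and -4.14 with shActb_1 and -2.49 and -2.65 with shActb_2 (1.65), and the neurofilament genes Ina and Nefl differed by 1.48 and 1.16. Elavl4, an RNA-binding protein of neurons, was at 1.08 and 1.02 with shActb_1 and 0.08 and -0.08 with shActb_2 (-1.05, adjusted p = 0.0023), and lay at -0.97, under 2-fold, without shActb_2 replicate 2. No member of the astrocyte (11 tested), oligodendrocyte (10), pluripotency (17), microglia and blood (8) or endothelial (6) lists was called, and 1 of 10 epithelial markers was, Cldn3, a tight junction protein (1.61). Among 17 mesenchymal markers Thy1, a surface glycoprotein (1.27), and Meox2, a homeobox factor (1.36), were called higher and 0 lower, and by adjusted p alone 5 were higher and 3 lower, with a median difference of 0.03. The summed linear level of all 20 mesenchymal markers on the array, as log2, was 7.22 and 7.12 on the shActb_1 arrays and 6.90 and 6.84 on the shActb_2 arrays, so the sum was lower with shActb_2. For the 11 epithelial markers it was 7.77 on both shActb_1 arrays and 8.12 and 8.20 on the shActb_2 arrays, and the part of other cell types in these differences was not tested. Meox2 was at -4.75 and -4.89 with shActb_1 and -3.39 and -3.52 with shActb_2, both far below the shEGFP arrays at -1.54 and -1.31.

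Among integrins, Itgb3 was lower with shActb_2 at both of its probes. Itgb3, the β subunit of the vitronectin receptor, was at 1.26 and 1.09 with shActb_1 and -0.41 and -0.37 with shActb_2, a difference of -1.57 (SE 0.12, adjusted p = 0.000265), and its dimmer probe differed by -1.12. The shEGFP arrays lay at -0.07 and -0.07, between the hairpins. Itga7, a laminin receptor subunit of muscle, was at 2.30 and 2.18 with shActb_1 and 1.13 and 1.26 with shActb_2 (-1.05, adjusted p = 0.000688), and just under 2-fold without shActb_1 replicate 1 or shActb_2 replicate 1 (-0.99 each). Col6a3, a chain of the microfibrillar collagen of connective tissue, was at -2.78 and -3.26 with shActb_1 and -1.10 and -1.08 with shActb_2 (1.93, adjusted p = 0.000678), and Col2a1, the cartilage collagen, differed by 1.29. Mmp3, a matrix protease, was at -4.22 and -4.51 with shActb_1 and -2.33 and -2.32 with shActb_2 (2.04, adjusted p = 0.000272). Of 19 collagens 2 were called higher and 0 lower, of 28 other matrix genes 1 higher and 0 lower, and of 20 integrins and laminins 1 higher and 2 lower, where 2.29% of all named genes were called higher and 2.01% lower. By adjusted p alone 3 collagens were higher and 4 lower and 6 other matrix genes higher and 4 lower, with median differences of -0.0079 and -0.10. The summed level of the 22 collagens on the array was 7.96 and 7.89 with shActb_1 and 7.74 and 7.73 with shActb_2. The integrin called higher, Itga4, was at the detection limit and lost its call when any single array was left out.

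The largest increases outside the lists are given for probes above background on all 4 arrays. Tbx1, a T-box factor of the pharyngeal arches, was at -5.18 and -4.61 with shActb_1 and -2.29 and -2.32 with shActb_2 (2.59). Edn2, an endothelin, was at -4.36 and -4.49 with shActb_1 and -1.94 and -2.10 with shActb_2 (2.41), Nrxn2, a presynaptic adhesion protein, at -2.79 and -2.51 with shActb_1 and -0.32 and -0.29 with shActb_2 (2.34, and 0.87 at its dimmer probe). Steap4, a metalloreductase, differed by 2.33, Krt76, a keratin, by 2.29, Pde1a, a phosphodiesterase, by 2.21 and Wt1, the Wilms tumour factor, by 2.19, with adjusted p from 6.66e-05 to 0.000693. Probes disagreed for Sprr2a2, where the called probe gave 3.46 and the bright one 0.28, and for Tmem255a, where they gave 2.41 and -0.53. Among genes named after their values were seen, for their level or because shEGFP did not stand apart from the overexpression arrays, Nrn1, the neurite growth factor neuritin, was at 1.41 and 1.22 with shActb_1 and 3.42 and 3.33 with shActb_2 (2.07, adjusted p = 9.09e-05). Ass1, the argininosuccinate synthase, differed by 1.57, Sema3c, a guidance factor, by 1.35, Ptn, the growth factor pleiotrophin, by 1.09 and Adamts15, a matrix protease, by 2.11. In the other direction Crmp1, a cytoskeletal protein of growing axons, was at 0.25 and 0.10 with shActb_1 and -1.26 and -1.17 with shActb_2 (-1.39) and Ddn, dendrin, at 1.12 and 0.98 with shActb_1 and -0.20 and -0.21 with shActb_2 (-1.26).

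Some genes were detected with 1 of the Actb hairpins and not the other. Of 279 probes above background on both shActb_2 arrays and neither shActb_1 array 165 were called higher, and of 379 with the opposite pattern 179 were called lower, counts that the detection rule itself favours. Rarres1, a retinoic acid responder, was at least 10.7-fold higher with shActb_2 (adjusted p = 0.00379, and 0.0596 with the 4 shActb arrays alone) and Rassf9, an endosomal protein, at least 5.59-fold (adjusted p = 0.000112). Dok7, an adaptor at the neuromuscular junction, was at least 5.13-fold higher (adjusted p = 0.0115), and lost its call when any single array other than shActb_1 replicate 1 was left out. Vmn2r42 and Olfr918, which are chemosensory receptor genes, were at least 9.12-fold and 4.89-fold higher, and the other probe of Vmn2r42 was not detected with either hairpin. The Olfr918 bound was 3.04-fold without shActb_2 replicate 1 and 7.85-fold without replicate 2. Of these, Rarres1, Rassf9 and Dok7 were above background on both shEGFP arrays too, and the receptor genes on no array outside shActb_2. In the other direction Ccne2, a cyclin of S phase entry, was at least 6.22-fold higher with shActb_1 (adjusted p = 0.000149). It was also above background on both shEGFP arrays, which share the slide of shActb_1, and on none of the 6 overexpression arrays. Xist was also called lower with shActb_2, where neither array was well above background, but the shActb_1 arrays themselves lay at -1.25 and -4.40. It was at least 7.35-fold higher with shActb_1, a bound of 2.46-fold without shActb_1 replicate 1 and 21.9-fold without replicate 2. Its difference of -3.29 became -1.72 without shActb_1 replicate 1, and the call was lost there (adjusted p = 0.11), without shActb_2 replicate 1 (0.0882) or replicate 2 (0.134), after quantile normalization (0.0597), with the 4 shActb arrays alone (0.126), with the 6 knockdown arrays alone (0.0782) and without the filter on dim probes (0.0612).

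The largest decreases lay at probes where shActb_1 and its control, measured on the same slide, stood above the other arrays. The 12 largest at probes above background on all 4 arrays were in Cbx7, Lyar, Cdk1, Tbc1d14, Aurkb, Smg8, Tsc22d2, Rbbp9, Serpinb6d, Zbtb7c, Dnal1 and Usp15, from -3.18 to -2.001. Aurkb, a mitotic kinase, was at -1.02 and -0.89 with shActb_1 and -3.46 and -3.48 with shActb_2, and at -1.26 and -1.15 with shEGFP. The overexpression groups, on the remaining slide, averaged -4.81 (EGFP), -5.15 (Mkl1) and -5.24 (Srf), so the shActb_1 and shEGFP arrays stood together above all others. The same held for all 12 probes, with both shEGFP arrays above all 6 overexpression arrays. Where such a gene had a brighter probe, that probe was not called. For Cdk1, the kinase that drives mitosis, the called probe gave -2.72 and the brightest probe -0.18, and for Tbc1d14, a regulator of autophagy, the values were -2.61 and -0.05. Of 20 tested mitosis genes 1 was called lower (Aurkb) and 0 higher, where 2.01% and 2.29% of all named genes were. By adjusted p alone 9 were higher and 1 lower, where 20.9% and 12.4% of all named genes were.

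**Figure D4:**
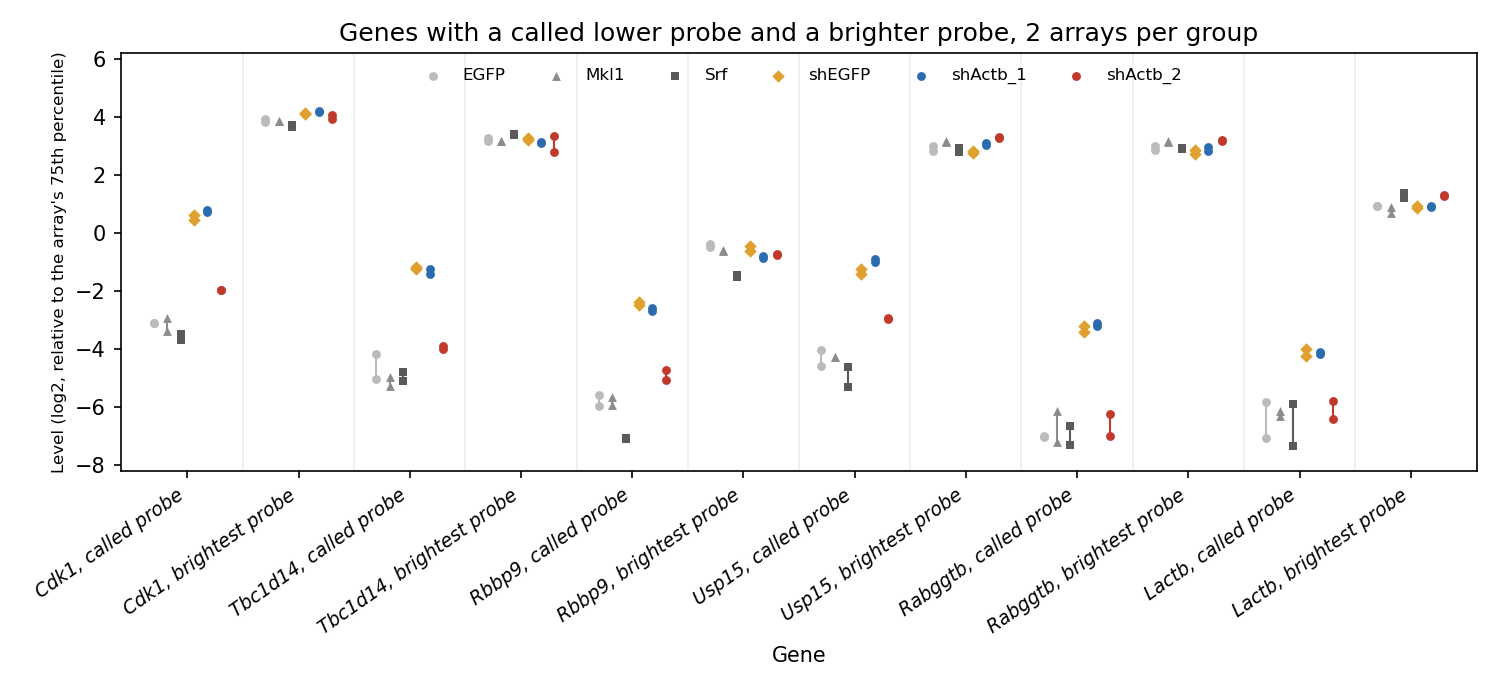
Level (y axis, log2 relative to the array's 75th percentile) on each of the 12 arrays for 6 genes with a probe called lower with shActb_2, shown at that probe and at the gene's brightest probe. At the called probes the shEGFP and shActb_1 arrays, which share a slide, lie above all other arrays. At the brightest probes this order holds for Cdk1 alone, by a small margin.

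This pattern was counted without using any shActb array, by comparing both shEGFP arrays with all 6 overexpression arrays. Among 15663 named genes tested shEGFP lay above all 6 in 15.8% and below all 6 in 23.9%. Among the 315 genes called lower with shActb_2 the shares were 66.7% and 3.17%, and among the 358 called higher 5.31% and 35.2%. The median of shEGFP minus the overexpression arrays was 0.83 for the genes called lower and -0.56 for those called higher, against -0.08 for all. Since shEGFP and shActb_1 shared a slide and the overexpression arrays had another treatment, the part of the slide in these values was not tested. Among genes described above as higher with shActb_2, shEGFP lay below all 6 for Bmp7, Id4, Fst, Sfrp5, Lgr5, Cxcl14, Bnip3, Hspa1a, Gad2, Nefl, Cldn3, Col6a3, Dusp5, Edn2, Krt76, Wt1, Rarres1 and Olfr918. Among the lower genes outside the 12, it lay above all 6 for Nog, Gdf15, Ccl2, Ccl7, Cxcl16, Vcam1, Nfkbie, Parp14, Trib3, Ddit3, Psph, Slc7a3, Elavl4 and Ccne2. When probes on which shEGFP stood apart were left out, an alternative chosen after seeing the data, 630 of 20305 probes were called, 336 higher and 294 lower. Of the 401 called lower probes with a gene symbol, 84 belonged to a gene with a brighter tested probe, and 6 of those brighter probes were called lower too. For 70 of 428 called higher probes, 21 brighter probes were called higher.

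Set side by side with shEGFP, which both comparisons share, the genes called higher with shActb_2 had a median difference of -0.49 for shActb_1 and 0.93 for shActb_2. The genes called lower had medians of 0.08 and -1.17, so for these genes shActb_1 lay near its control on the same slide. Both sets were picked by the difference between the hairpins on these arrays, which partly fixes these medians. The shActb_2 arrays also lay on another slide than shEGFP. On the overexpression arrays, named by label and sharing no array with the hairpins, Mkl1 minus EGFP had a median of -0.25 over the genes higher with shActb_2 and -0.15 over those lower, against 0.03 over all named genes tested, and Srf minus EGFP had medians of 0.48, -0.13 and 0.00. Mkl1 was above EGFP in 41.3% of the genes higher with shActb_2, against 53.6% of all, and Srf in 68.2%, against 50.2%. Single genes show the range. Dkk1 averaged -1.30 with EGFP, -3.72 with Mkl1 and 1.20 with Srf, while Actg2 averaged -4.34, 1.08 and 0.27.

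**Figure D5:**
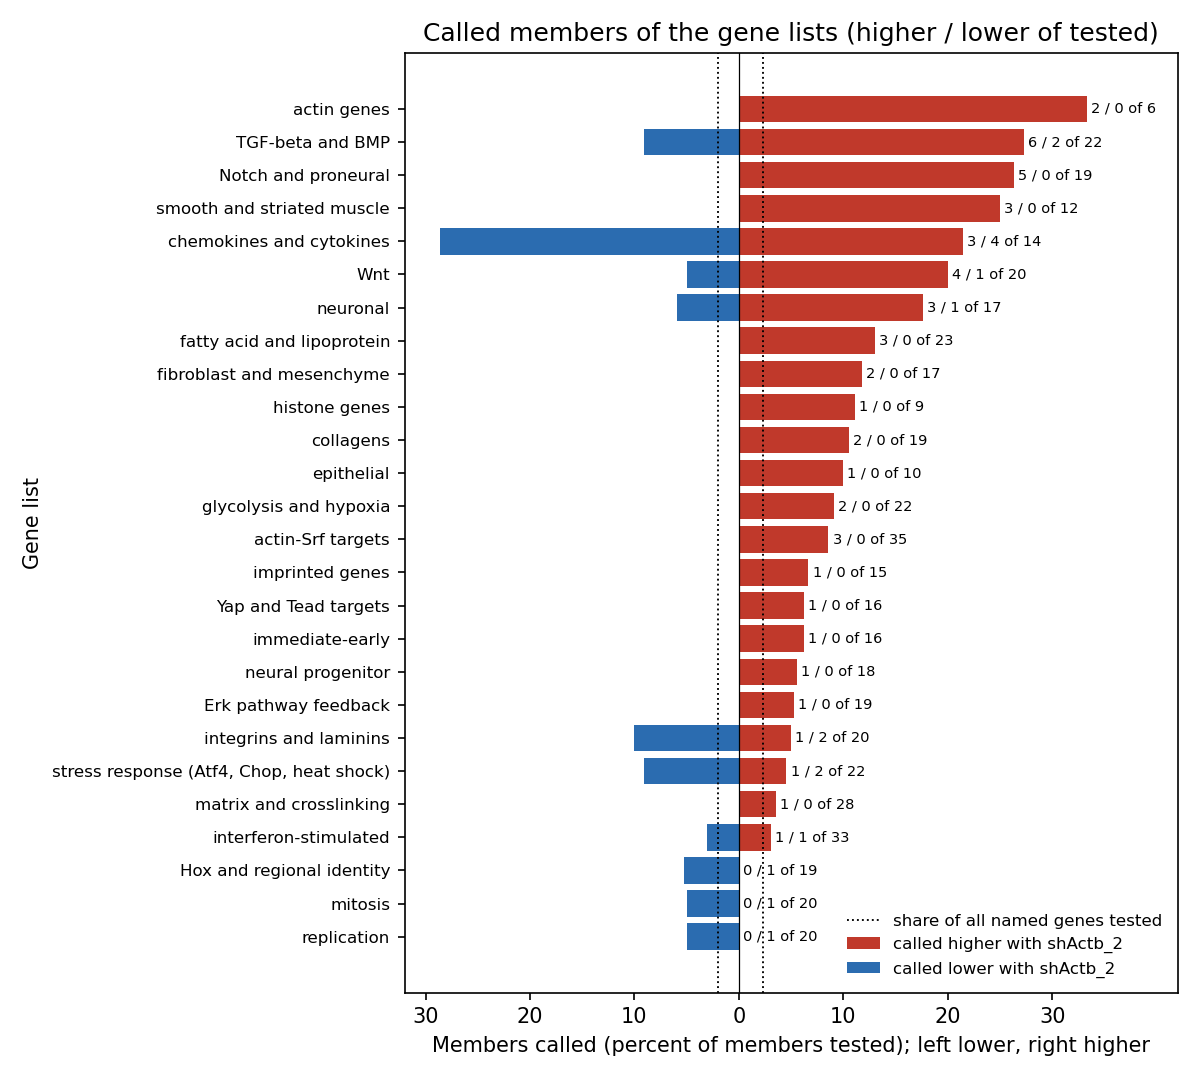
Share of tested members called higher (right) or lower (left) with shActb_2, in percent, for each gene list with at least 2 tested members and at least 1 called, with counts beside the bars and dotted lines at the shares over all named genes (2.29% higher, 2.01% lower). The actin list (2 of 6), BMP and TGF-β (6 of 22) and Notch (5 of 19) reach the largest shares higher, and chemokines (4 of 14) the largest share lower among these lists. The sex-linked list, with Xist as its only tested gene, is not drawn.

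The remaining lists held few called genes, where 4.30% of all named genes were called (2.29% higher and 2.01% lower). In lipid metabolism 3 of 23 were higher, namely Abca1, a cholesterol exporter (1.49), Pparg, a regulator of fat storage (1.09), and Fabp7. For Abca1 the shEGFP arrays lay below all overexpression arrays. Of 16 immediate-early genes Fos was higher (1.19), of 9 histone genes H2bc4 (1.15), of 15 imprinted genes Phlda2, a placental growth suppressor, and of 16 Yap and Tead targets 1. Emx1, a forebrain homeobox gene, was the single decrease among 19 Hox and regional genes (-1.66), was near background with shActb_2, and lost its call without shActb_1 replicate 2 (-1.17, adjusted p = 0.167), without shActb_2 replicate 2 (-0.93, adjusted p = 0.146) and in other alternatives. No call was made among 18 p53 targets, 21 cholesterol synthesis genes, 17 antioxidant genes, 15 housekeeping genes, 18 lysosome and autophagy genes or 8 genes of the plasminogen system. By adjusted p alone 7 of the 18 p53 targets were lower and 3 higher, where 12.4% and 20.9% of all named genes were. By the same measure 7 of the 15 housekeeping genes were higher and 1 lower.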

How the data were processed

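The arrays were one-colour Agilent mouse arrays with 62976 features. The study's methods give this format, while the labels name another. The authors quantified scans with Feature Extraction 11.5.1.1 and deposited its processed signal intensity per spot, background-subtracted and not normalized between arrays. Their deposited matrix of log2 values served as an alternative. Samples were grouped by title. From the processed signal, control and outlier spots were left out, spots of a probe were averaged and log2 was taken relative to each array's 75th percentile. Accessions, matched without versions to RefSeq (GRCm38.p6, names only), gave symbols to 28026 of 55681 probes (50.3%).

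All 12 arrays were fitted with limma 3.58.1 in R 4.3.3, with 1 mean for each of 6 groups. Tested probes were well above background on both arrays of at least 1 hairpin. Adjustment was by Benjamini-Hochberg over all tested probes, and tests were two-sided. Genes were described by their brightest probe. Named genes were the actins and Srf genes, the 12 largest changes each way among called probes above background and unsaturated on all 4 arrays (brightest called probe of a gene), the 5 largest bounds each way among genes detected with a single hairpin, and up to 4 called members per list, or the member with the highest level. Members, 43 gene lists and tests were chosen with earlier results of these data known. Other called list members, called genes with a level over 2.5 and the 12 largest changes each way among genes whose shEGFP arrays did not stand apart were added after values were seen. Slides come from the file headers. Alternatives changed the background correction, normalization, filter, arrays fitted and replicates. On simulated data for this comparison (200 of 35426 probes changed) 70% of changes of 1.5 and 96% of changes of 3 (log2) were recovered, with 3.49% false calls. Fewer probes were changed there than the 1782 called here, so 3.49% is no error rate of these calls. The part of the slide in them was not tested. The number of arrays limits the precision. Python 3.11.15 and matplotlib drew the figures.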

Additional observations from a re-analysis of the deposited data

Results flagged for a closer look

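The difference between the hairpins passed its own test at 1782 probes. Since both hairpins were set against the same shEGFP arrays, their differences from shEGFP differ by the same amounts. Slide and hairpin cannot be told apart at those probes, and the p-values measure the spread between arrays only. The spike-in probes, which belong to no comparison of genes, read 0.5874 higher (log2, mean of 6 probes) with shActb_2 than with shActb_1, although the added RNA has no role in the cells.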

How the results depend on the processing

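The count of 1782 called probes (35.6% of them higher with shActb_2) became 418 with normexp background correction (37.6% higher), 1121 among probes above background on all 4 arrays, 11371 by adjusted p alone (52.1% higher), 673 with 1 probe per named gene (53.2% higher) and 630 without probes on which shEGFP stood apart, an alternative added after the data were seen (53.3% higher). Quantile normalization gave 1317, of which 48% were higher. Leaving out a single array gave 1554 to 2584 calls, and without shActb_2 replicate 2 most were higher (1175 of 1978), so the majority direction depends on that array. Replicate numbers in the labels did not pair the samples (correlation of deviations -0.002 between the hairpins, and -0.138 to 0.261 over all 15 pairs of groups), and the fit with the replicate number as a block gave 1814 calls. Of 116 named genes that were called, 0 reversed in any alternative run. Normexp kept 79 of them called, quantile normalization 106, the 4 shActb arrays alone 108 and the deposited log2 values 115. Normexp took the median spot signal and added an offset of 50, and the part of each in its lower count was not tested. With it Rassf9 lost its call by size alone (0.88, adjusted p = 2.5e-05), while Xist also missed the adjusted p limit (0.0513). Named genes that were not called reversed as follows. After quantile normalization Actg1 was at -0.028, Tpm3 at -0.143, Aen at -0.0355, Rpl10 at -0.0963 and Atp5b at -0.142. Leaving out a single array moved Aen between -0.0246 and 0.109 and Fdps between -0.0187 and 0.0055, and with centring on probes above background on all arrays Fdps was at 0.0232. Signal over background set which probes were tested, and the median level of the called genes was -4.37 (higher) and -3.05 (lower) with shActb_1.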
